A study of Mus musculus with 2 samples.

Results

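The genes described here encode the proteasome, the protease complex that degrades ubiquitin-tagged proteins, and were taken as every gene whose symbol begins with Psma, Psmb, Psmc, Psmd, Psme, Psmf or Psmg followed by a digit. The rule took 49 of the 16614 genes listed. The series holds 2 libraries of poly-A RNA from mouse bone marrow macrophages of strain C57BL/6, 1 of wild-type (WT) and 1 of Foxo3 KO genotype. Both cultures had 3 days of M-CSF, which grows macrophages from marrow, and then 2 days of RANKL, which drives them towards osteoclasts. The allele of the knockout, the age and sex of the mice and whether marrow was pooled are not given in the sources at hand. Foxo3 itself stood at 10.3 FPKM in WT and 0.548 FPKM in KO cells, 5.33% of the WT value.

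The 20S core of the proteasome is a barrel of outer alpha rings and inner beta rings, and 3 of its beta subunits cut peptide bonds. The 19S cap binds ubiquitin chains, unfolds the substrate with its ATPase ring and feeds it into the core. Under interferon, and constitutively in many cells of haematopoietic origin, the inducible subunits encoded by Psmb8, Psmb9 and Psmb10 take the places of those of Psmb5, Psmb6 and Psmb7. The resulting immunoproteasome favours cuts that suit peptides for MHC class I. FoxO3 is known in muscle as an activator of genes of the ubiquitin-proteasome pathway.

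The unit, inferred from the numbers themselves, is FPKM, or fragments per kilobase scaled for library size, so levels can be compared between genes. The difference between the libraries is given as log2(KO + 1) minus log2(WT + 1), called the log2 ratio. Adding 1 shrinks the ratio of genes with few FPKM. With 1 library in each group there is no replicate error and no test, so a difference is one between these 2 libraries and may not be one between the genotypes. Members were instead read against the 10003 genes that reached 1 FPKM in at least 1 library, called measured. Their log2 ratios had a median of 0.0253 and a robust spread (the scaled median absolute deviation) of 0.134. Of the 49 proteasome genes 48 were measured.

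Proteasome transcripts were nearly equal in the 2 libraries. No measured member differed by 2-fold in either direction, a size that 0.32% of all measured genes reached. The lowest log2 ratio was -0.13, of Psmf1, and the highest was 0.27, of Psmg1. Small differences leaned to the KO side: 39 of the 48 were higher there, against 57.6% of all measured genes, and 9 were lower, against 42.4%. The median log2 ratio of the 48 was 0.0634. After trimmed-mean scaling 36 were higher, against 51.8% of all measured genes. Together the 48 genes made up 0.772% of the summed FPKM in WT and 0.803% in KO cells.

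**Figure D1:**
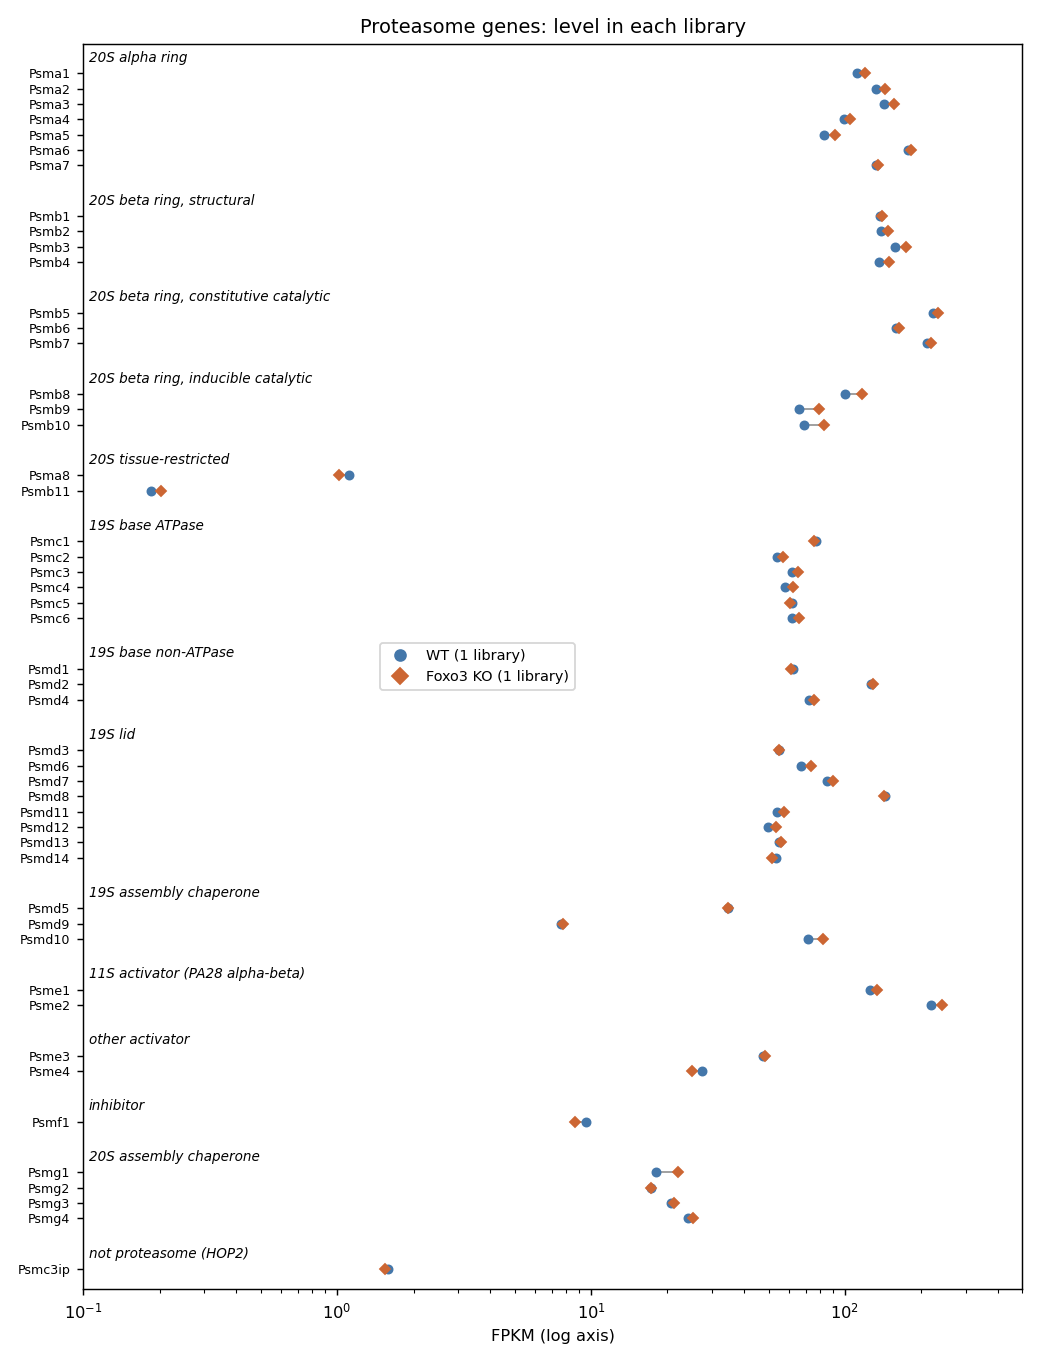
FPKM (log axis) of each of the 49 proteasome genes in the WT library (circles) and the Foxo3 KO library (diamonds), grouped by role. The 2 points of a gene lie close together throughout, and the widest gaps on this axis are those of Psmg1, Psmb9 and Psmb10.

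Part of that lean went with transcript length. The members are short, with a median length of 1490.5 nt against 3084 nt for the measured genes that had a length. Over those 9963 genes longer genes had lower log2 ratios, with a Spearman rho of -0.20. Over the 48 members rho was -0.37, a description over genes that share both libraries and are not independent. Of the 36 members under 2000 nt 30 were higher in the KO library, and of the 12 longer ones 9 were. Among all measured genes the higher share was 67.52% under 2000 nt and 54.23% above. With the length trend removed, 24 of the 48 members were higher, against 50% of all genes with a length, and their median was 4e-05, so the group's lean was no longer present on that scale.

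**Figure D2:**
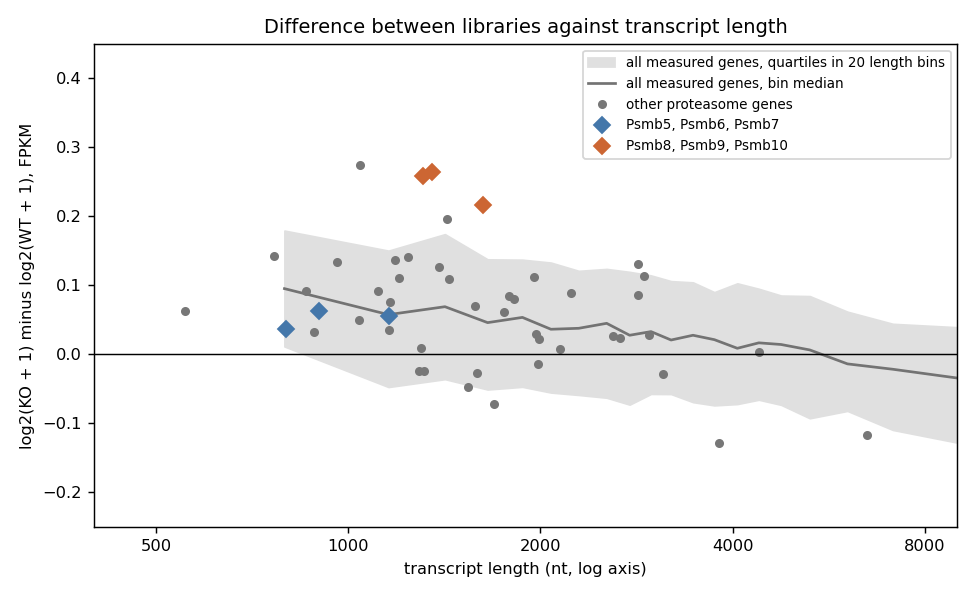
Log2 ratio of each measured proteasome gene against transcript length (nt, log axis), over the median and quartiles of all measured genes in 20 length bins. Psmb5, Psmb6 and Psmb7 lie at or below the bin medians, while Psmb8, Psmb9 and Psmb10 lie above the upper quartile.

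The inducible catalytic subunits differed most as a set, and all 3 were higher in the KO library. Psmb9, which encodes the inducible subunit beta1i (chromosome 17, 34181987 to 34187764), stood at 65.9 FPKM in WT and 79.3 FPKM in KO cells, a log2 ratio of 0.26. Psmb10, for beta2i (chromosome 8, 105935735 to 105938444), stood at 68.8 and 82.5 FPKM, also a log2 ratio of 0.26. Psmb8, for beta5i (chromosome 17, 34197721 to 34201454), read 100.4 FPKM in WT and 116.8 FPKM in KO cells, a log2 ratio of 0.22. In the KO library these genes were thus at 120.4%, 119.9% and 116.3% of their WT level. Of all measured genes, 4.81% had a higher log2 ratio than Psmb9, 5.19% a higher one than Psmb10 and 8.11% a higher one than Psmb8. Macrophage markers were lower in KO cells (median -0.19 over 13 genes), and their part in the difference was not tested.

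The constitutive counterparts stood at higher levels than the inducible genes and differed less between the libraries. Psmb5, for the chymotrypsin-like subunit beta5 (chromosome 14, 54614119 to 54618022), stood at 222.7 FPKM in WT and 232.7 FPKM in KO cells. Psmb6, for the caspase-like beta1 (chromosome 11, 70525367 to 70527858), read 158.7 and 162.9 FPKM. Psmb7, for the trypsin-like beta2 (chromosome 2, 38588036 to 38644087), was at 210.7 and 219.1 FPKM. Their log2 ratios were 0.06, 0.04 and 0.06, each within the robust spread of all genes.

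The mean log2 ratio was 0.246 over the inducible and 0.0523 over the constitutive set, a difference of 0.194, or 1.14-fold. No inducible gene had a log2 ratio as low as any constitutive one. The difference had the same sign in each pair that shares a place in the ring: 0.23 for Psmb9 over Psmb6, 0.20 for Psmb10 over Psmb7 and 0.15 for Psmb8 over Psmb5. It was 0.214 with the length trend removed, where the mean of the constitutive genes turned to -0.031 and that of the inducible genes was 0.183. Leaving out 1 pair at a time gave from 0.177 to 0.215, and could not turn the sign, as each pair was positive. A factor common to a whole library cancels in this difference.

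As a share of the FPKM of the 6 catalytic genes, the inducible subunits made up 28.4% in WT and 31.2% in KO cells, 2.77 percentage points apart. By pair, Psmb8 made up 31.1% of its pair with Psmb5 in WT and 33.4% in KO cells. Psmb9 made up 29.3% and 32.8% of its pair with Psmb6. Psmb10 made up 24.6% and 27.4% of its pair with Psmb7. Constitutive transcripts were the larger part of every pair in both libraries. Transcript shares do not give the makeup of assembled particles.

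**Figure D3:**
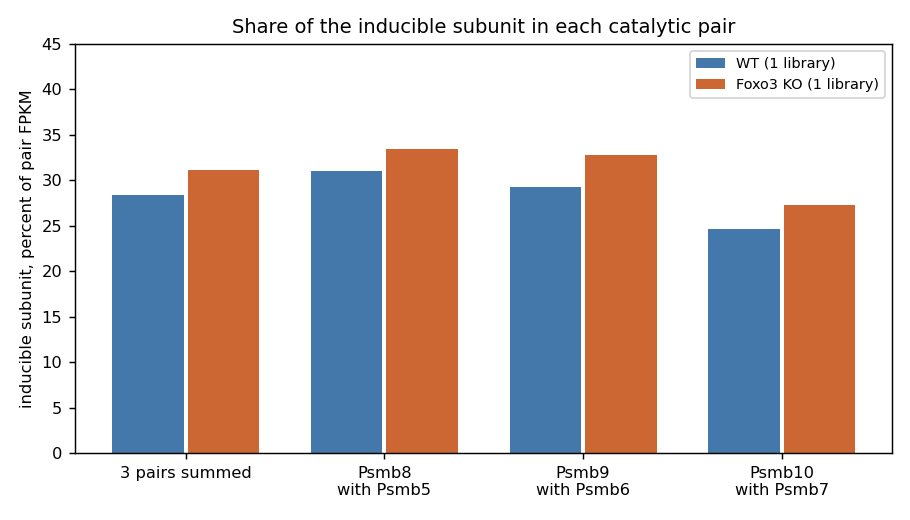
Percent of the FPKM of each catalytic pair, and of the 3 pairs summed, that belonged to the inducible subunit in the WT and the Foxo3 KO library (1 library each, no error bars). All bars lie between 24.6% and 33.4%, and the KO bar is the higher in each pair.

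Psmb8 and Psmb9 lie in the class II region of the MHC on chromosome 17, beside Tap1 and Tap2, which encode the peptide transporter of the class I pathway. All 7 measured genes within 100 kb of them, other than the pair itself, were higher in the KO library, with a median log2 ratio of 0.19. Of all measured genes 57.6% were higher, which is the share to set beside this and the neighbour counts below. Tap1 stood at 30.5 FPKM in WT and 35.0 FPKM in KO cells, and Tap2 at 74.3 and 88.1 FPKM. H2-DMb1, of the class II peptide editor, had a log2 ratio of 0.29 and the class II chain gene H2-Aa one of 0.24, while Brd2 at the edge of the window had 0.08. Around Psmb10 on chromosome 8, 7 of 9 measured neighbours were higher, with a median of 0.06. The counts were 2 of 4 around Psmb5, 3 of 7 around Psmb6 and 0 of 1 around Psmb7. The neighbour of Psmb7 is the kinase gene Nek6, at 7.81 FPKM in WT and 4.78 FPKM in KO cells, and exons of these genes overlap too, so reads of Psmb7 may not be fully separable. The transcription start sites of Psmb9 and Tap1 are 225 bases apart in RefSeq and point away from each other. Exons of the 2 genes overlap in GENCODE, so their reads may not be fully separable. Exons of Psmb8 and of Tap2 both overlap those of Gm20496, so the same limit holds for them.

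**Figure D4:**
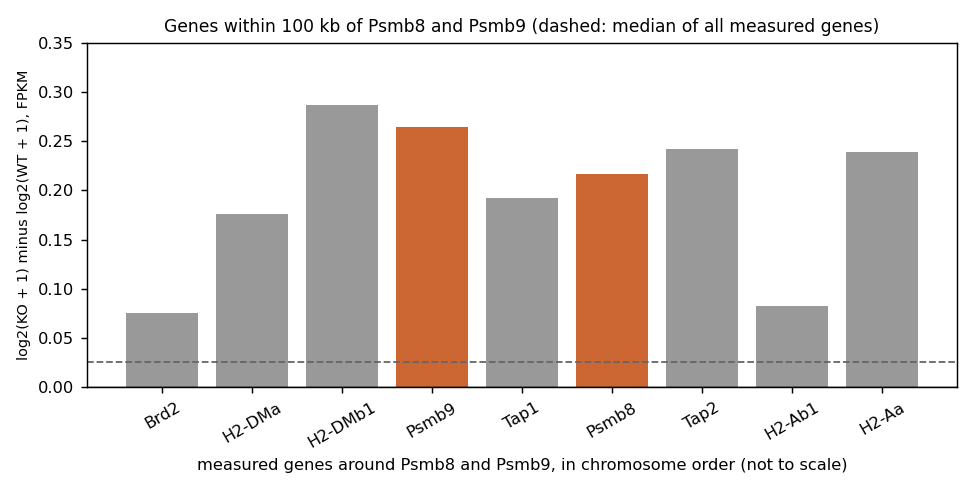
Log2 ratio of Psmb9 and Psmb8 (coloured) and of the 7 other measured genes within 100 kb, in chromosome order. Every bar is above the median of all measured genes (0.0253, dashed), from 0.08 for Brd2 to 0.29 for H2-DMb1.

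Promoters of 41 members were found in the RefSeq table (GRCm38.p6), as windows of 250 bases before to 50 bases after a gene's start. Psmb1, Psmb2, Psmb7, Psma8, Psmc3, Psmd3, Psmd7 and Psmg2 had no entry. Both strands were searched. The interferon-stimulated response element core, GAAA, any 2 bases and GAAA again, was found for 5 of the 41 (12.2%, against 3.99% of the 27025 genes in the table), namely Psme1, Psmb3, Psmd4, Psmd9 and Psmg4. The gamma-activated site TTCNNNGAA was found for 3 (7.32% against 9.55%), namely Psmb8, Psmd2 and Psmg1. The antioxidant response element core TGACNNNGC, the kind of site bound by Nfe2l1 and Nfe2l2, was found for 6 (14.63% against 13.99%), among them Psmb5 and Psmb6. The FoxO site GTAAACA was found for 0 of the 41, against 4.05% of all genes. The CCAAT box, CCAAT, was found for 15 (36.59% against 41.06%), Psmb9 and Psmb11 among them. A match is only a run of letters, and no match says only that these letters are absent from the window. The matches of the longer motifs in catalytic and PA28 activator genes are shown with up to 10 bases on each side, with the motif in capitals.
Psmb8, gamma-activated site, chr17:34198088-34198116, plus strand: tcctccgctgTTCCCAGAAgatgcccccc
Psme1, interferon-stimulated response element core on the opposite strand, chr14:55578493-55578522, plus strand: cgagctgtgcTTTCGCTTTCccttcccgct
Psmb5, antioxidant response element core, chr14:54618024-54618052, minus strand: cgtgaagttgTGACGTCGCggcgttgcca
Psmb6, antioxidant response element core, chr11:70525338-70525366, plus strand: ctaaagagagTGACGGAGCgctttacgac
The windows of Psmb9 and Psmb10 held none of the interferon, gamma-activated, antioxidant or FoxO letters. The genes whose windows had the interferon core were all higher in the KO library, against 57.6% of all measured genes. All lay within the robust spread of all genes. Psmb3 had a log2 ratio of 0.14, Psme1 of 0.09, Psmg4 and Psmd4 of 0.06 and Psmd9 of 0.03. With the length trend removed, Psmg4 and Psmd9 were on the lower side. A link between these letters and the differences was not tested.

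The PA28 activator, a ring that caps the 20S core without ubiquitin or ATP, is induced by interferon like the inducible subunits. Psme2, for PA28 beta, was the most abundant member in the KO library, at 240.0 FPKM against 218.7 FPKM in the WT. Psme1, for PA28 alpha, stood at 125.3 FPKM in WT and 133.6 FPKM in KO cells, and its exons overlap those of Emc9. Their log2 ratios, 0.13 and 0.09, lay below those of all 3 inducible subunits and within the spread of all genes. The gene of the nuclear activator PA28 gamma, Psme3, read 47.5 and 48.3 FPKM. Psme4, which encodes the large activator PA200, went the other way, with 27.3 FPKM in WT and 25.1 FPKM in KO cells and a log2 ratio of -0.12. Psmf1, for the inhibitor PI31, had the lowest log2 ratio of all members, at 9.54 and 8.64 FPKM. Psme4 and Psmf1 are also among the longest members, at 6491 and 3809 nt.

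All 7 genes of the alpha ring, which gates the core, were higher in KO cells, with log2 ratios from 0.04 to 0.14. Of all measured genes 57.6% were higher. Psma5 (alpha5) stood at 82.8 FPKM in WT and 91.5 FPKM in KO cells, the largest of these differences. Psma3 (alpha7) read 142.2 and 155.8 FPKM. Psma2 (alpha2) read 132.6 and 143.7 FPKM, and Psma1 (alpha6) 111.4 and 120.3 FPKM. Differences were smaller for the remaining alpha genes. Psma4 (alpha3) stood at 99.2 and 104.6 FPKM, Psma6 (alpha1) at 176.5 and 182.6 FPKM and Psma7 (alpha4) at 132.1 and 135.4 FPKM. With the length trend removed, Psma6 and Psma7 were on the lower side.

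The beta subunits that hold no active site were likewise higher in 4 of 4 cases, against 57.6% of all measured genes. Psmb3 (beta3) read 157.8 FPKM in WT and 174.3 FPKM in KO cells, and Psmb4 (beta7) 136.0 and 149.6 FPKM. Psmb2 (beta4) stood at 138.5 and 147.7 FPKM and Psmb1 (beta6) at 136.8 and 139.7 FPKM. Psmb1 was on the lower side with the length trend removed. Tissue-restricted core subunits were scarce. Psma8, the testis form of alpha4, was at 1.12 FPKM in WT and 1.01 FPKM in KO cells. The thymic subunit gene Psmb11 (beta5t) was at 0.185 and 0.202 FPKM, the 1 member below the minimum.

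The ATPases of the 19S base, which unfold the substrate, split 4 to 2. Psmc4 was the most different, at 57.9 FPKM in WT and 62.5 FPKM in KO cells. Psmc6 read 61.8 and 65.8 FPKM, Psmc2 53.9 and 57.2 FPKM and Psmc3, whose exons overlap those of Slc39a13, 61.9 and 65.5 FPKM. The 2 lower ones, Psmc1 at 76.7 and 75.3 FPKM and Psmc5 at 61.7 and 60.6 FPKM, were each within 2% of their WT level. The 6 genes lay in a narrow band of levels, from 53.9 to 76.7 FPKM in the WT library.

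Of the other base genes, Psmd2 (Rpn1), a scaffold on which ubiquitin receptors dock, stood at 126.4 FPKM in WT and 128.8 FPKM in KO cells. The scaffold gene Psmd1 (Rpn2), whose exons overlap those of Htr2b, read 62.5 and 61.2 FPKM. The ubiquitin receptor gene Psmd4 (Rpn10) read 72.4 and 75.6 FPKM. The largest of these log2 ratios was 0.06, of Psmd4.

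Lid genes were higher in 6 of 8 cases, against 57.6% of all measured genes. Psmd3 was on the lower side after either scaling alternative, and Psmd13 after centring on the median gene. Psmd14 (Rpn11), the deubiquitinase that removes the chain as the substrate enters, was the lowest of them, at 53.6 FPKM in WT and 51.8 FPKM in KO cells. Psmd8 (Rpn12), the most abundant, was at 144.4 and 143.0 FPKM. At the other end, the lid scaffold gene Psmd6 (Rpn7) stood at 67.2 and 73.5 FPKM. Lid scaffolds between these ends were Psmd12 (Rpn5) at 49.6 and 53.7 FPKM, Psmd11 (Rpn6) at 54.2 and 57.6 FPKM and Psmd3 (Rpn3) at 54.9 and 55.2 FPKM. Psmd7 (Rpn8), the partner of Psmd14, read 85.3 and 89.6 FPKM. Psmd13 (Rpn9), which shares exon sequence with Sirt3, read 55.2 and 56.1 FPKM. The log2 ratios of the lid ran from -0.05 to 0.13.

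Core genes stood at higher levels than cap genes. The 14 constitutive core genes had a median of 137.6 FPKM in WT and 148.6 FPKM in KO cells, and the 17 cap genes one of 61.8 and 62.5 FPKM. Core over cap was thus 2.23 in WT and 2.38 in KO cells. All 14 core genes lay above the cap median in both libraries, and 3 cap genes in the WT, 2 in the KO library, passed the lowest core gene. The 14 core genes were all higher in the KO library, also after either scaling, with a median log2 ratio of 0.084. Of all measured genes 57.6% were higher, and of those under 2000 nt 67.52%. Of the 17 cap genes 12 were higher, with a median of 0.062, and Psmd3 and Psmd13 are the 2 that a scaling turned. With the length trend removed the core genes Psma6, Psma7, Psmb1, Psmb5, Psmb6 and Psmb7 turned to the lower side. So did the cap genes Psmd2, Psmd3 and Psmd13.

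Above the spread of all genes lay 5 members, 10.4% of the 48 against 15.4% of all measured genes. Of these 5, 2 encode chaperones that build the particle. Psmg1 (PAC1), which assembles the alpha ring with Psmg2, stood at 18.0 FPKM in WT and 22.0 FPKM in KO cells, a log2 ratio of 0.27. Its partner Psmg2 (PAC2) read 17.2 and 17.3 FPKM, so the partners of this heterodimer did not differ alike. The other core chaperone genes, Psmg3 and Psmg4, stood at 20.6 and 21.1 FPKM and at 24.0 and 25.2 FPKM. Psmd10 (gankyrin), a chaperone of the 19S base on chromosome X, read 71.5 and 82.1 FPKM, a log2 ratio of 0.20. The other base chaperones were Psmd5 at 34.5 and 34.6 FPKM and Psmd9 at 7.60 and 7.76 FPKM. Psmc3ip, which the symbol rule takes, encodes the meiotic recombination protein HOP2 and not a proteasome part, and read 1.59 and 1.55 FPKM, and its exons overlap those of Mlx.

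**Figure D5:**
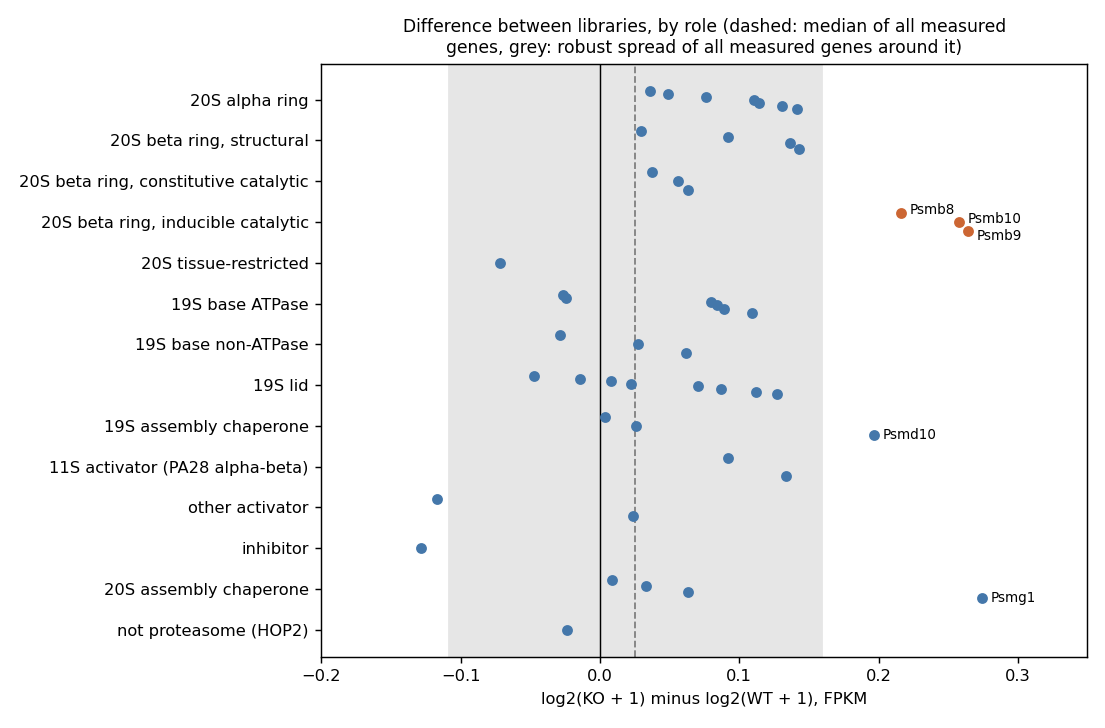
Log2 ratio of each of the 48 measured genes, by role, with the median of all measured genes (dashed, 0.0253) and their robust spread (grey, 0.134 to each side). Psmb8, Psmb9, Psmb10, Psmd10 and Psmg1 lie beyond the grey band on the high side, and Psme4 and Psmf1 on the low side.

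Beyond that spread on the high side lay 5 members (15.4% of all measured genes) and on the low side 2 (18.4%). At 1.1-fold 7 members were higher (19.2% of all measured genes) and 0 lower (14.8%). As shares of the 48 members, the counts on the high side were 10.4% and 14.6%, a little under those of all genes. On the low side they were 4.17% and 0%, further under. That 0% depends on the added 1 FPKM: without it Psmf1 and Psma8 stood at 90.6% and 90.8% of WT, past 1.1-fold lower. With the length trend removed 4 members were at least 1.1-fold higher (13.5% of all genes with a length), namely Psmb8, Psmb9, Psmb10 and Psmg1, and 1 was as far lower (17.3%), Psmf1.

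Genes that work with the proteasome were also near equal, and none of the 7 lists given next held a gene past 2-fold. Their counts stand beside 57.6% of all measured genes higher in KO cells and a median log2 ratio of 0.0253. The lists were not recomputed with the length trend removed. Of 13 proteasome-associated and maturation genes 10 were higher in KO cells, and their median log2 ratio was 0.058. Pomp, the chaperone of core maturation, stood at 158.3 FPKM in WT and 159.5 FPKM in KO cells, and the farthest from 0 were Ublcp1 (0.23), Fbxo7 (0.19) and Zfand2a (-0.16). Ubiquitin genes, E1 enzymes and shuttles were higher in 14 of 17 cases (median 0.067), with Rad23b (0.21), Faf1 (0.20) and Ubqln4 (0.12) farthest out. The COP9 signalosome, a complex related to the lid, was higher for 9 of its 10 genes (median 0.044), and Cops3 had 0.21, Myeov2 0.15 and Cops8 -0.06. Genes that govern proteasome transcription split 4 to 4. Ddi2, the protease that activates Nfe2l1, had -0.22, Nfe2l2 -0.19 and the deglycosylase Ngly1 0.14, and Nfe2l1 itself stood at 51.9 FPKM in WT and 56.8 FPKM in KO cells.

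Of the ubiquitin ligases tied to FoxO, 1 of 4 measured genes was higher. Fbxo32 (atrogin-1), a FoxO3 target in muscle, stood at 2.65 FPKM in WT and 3.19 FPKM in KO cells, Fbxo30 had a log2 ratio of -0.10, and Trim63 was listed at 0 in both. Class I loading genes split 6 to 5 with a median of 0.010. Tap2 (0.24) and Tap1 (0.19) were at the high end and the class I heavy chain gene H2-D1, of a family with similar copies, at the low end (-0.20). B2m, the class I light chain, read 2423.5 FPKM in WT and 2272.3 FPKM in KO cells. Of 10 interferon regulators 7 were lower, against 42.4% of all measured genes, at a median of -0.08. Irf1, an activator of the inducible subunit genes, stood at 31.0 FPKM in WT and 38.0 FPKM in KO cells, Irf8 at 29.0 and 20.3 FPKM and Stat2 at 13.2 and 11.1 FPKM. A link between the levels of these regulators and those of the inducible subunits was not tested. The higher level of the inducible subunits was not shared by the loading list as a whole.

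Markers of the cells in culture differed as well. Of all measured genes 57.6% were higher and 42.4% lower in KO cells. Of 13 macrophage markers 12 were lower in KO cells, at a median log2 ratio of -0.19 and a summed level of 10763 FPKM in WT and 8747 FPKM in KO cells. The scavenger receptor gene Cd36 was past 2-fold, at 84.7 FPKM in WT and 31.9 FPKM in KO cells, and Mrc1 and Mertk had log2 ratios of -0.63 and -0.61. Of 11 osteoclast markers 8 were higher, at a median of 0.09 and sums of 20580 and 23122 FPKM. Of 8 dendritic cell markers, a cell type rich in immunoproteasome, only Itgax (3.10 and 3.23 FPKM) and Zbtb46 (1.14 and 1.48 FPKM) reached 1 FPKM. Their 8 levels summed to 5.22 FPKM in WT and 6.24 FPKM in KO cells, and none was at 0 in both. Of 8 lymphoid markers 1 was measured, Cd4, and Cd3e and Nkg7 were listed at 0 in both libraries, with sums of 7.04 and 6.69 FPKM. Neutrophil markers summed to 158.3 and 154.5 FPKM and stromal markers to 9.22 and 9.34 FPKM. The part of these cell types in the differences of proteasome genes was not tested, and fewer cells of a type cannot be told apart from less RNA per cell.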

How the data were processed

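RNA was sequenced from 1 WT and 1 Foxo3 KO library, grouped by their labelled genotype. The deposited values are read as FPKM made by the authors. No header or label names the unit, and that reading rests on the numbers, which are almost never whole and of which the lowest scale inversely with transcript length (slope -0.944 on log2 scales). A constant of 0.000001 was subtracted from each. TopHat, edgeR and mm10 are named in the submitters' processing notes without roles. The quantifier, annotation, strand use and library scaling have no mention in the sources used here. Read totals are unknown, so no counting interval is given. Ratios of low genes put the KO library at 1.4 times the WT depth, by an offset search.

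The members and lists were chosen with earlier results of these data known. Every member is named, and of each pathway list the 3 genes farthest from 0 at 10 FPKM or more in 1 library. Further genes were named after their values were seen: Pomp, Nfe2l1, Fbxo32, Trim63, B2m, the neighbours of catalytic genes and the markers. Gene positions, exon overlaps and lengths (longest transcript of the basic set) come from GENCODE M21 on mm10. File symbols matched it directly for 15876 genes and through a synonym for 640. The 4 annotated pseudogenes named for Psmb5, Psmb6 and Psmb7 have no row of their own, so reads of such copies may be counted in those genes. Alternatives were trimmed-mean scaling (KO divided by 1.0149), centring on the median gene, a pseudocount of 0.25 or 5 in place of 1 FPKM, minimums of 0 and 10 FPKM, other folds, and removal of a lowess trend (span 0.3) on length. Removing a GC trend and leaving out members with overlapping exons were added after the data were seen. Simulated data were used to test the trimmed-mean scaling, the 2-fold calls, the median of the members and the catalytic contrast. The contrast was checked only to a tolerance wider than its value here. The trend removals, the promoter search and the depth search were not tested in this way. Python 3.11.15, numpy 2.4.6, pandas 2.3.3, statsmodels 0.14.6 and matplotlib 3.10.9 were used.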

Additional observations from a re-analysis of the deposited data

How the results depend on the processing

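The count of members past 2-fold was 0 under every scaling, pseudocount, minimum and trend removal tried. At 1.1-fold 7 members were higher in the main setting and with a pseudocount of 0.25, and 6 with one of 5. It was 5 after trimmed-mean scaling, centring or GC trend removal, and 4 with the length trend removed. Lower by that size were 0 in the main setting and with a pseudocount of 5, 2 after centring and 1 in each other case. The median log2 ratio of the members depended on what it was set against: 0.0381 after centring on the median gene, 0.0364 with the GC trend removed and 4e-05 with the length trend removed, where 24 of 48 were higher. By construction these alternatives put the median of all measured genes at or near 0, which does not fix that of the members. Trimmed-mean scaling, centring and the GC trend left 36, 34 and 33 members higher, against 51.8%, 50% and 49.9% of all measured genes. Psmd3, Psmd5 and Psmg2 changed sign under all 3. Psmd13 did so under centring and the GC trend. The difference between inducible and constitutive catalytic genes was positive in all 10 alternatives. It ran from 0.177 with Psmb9 and Psmb6 left out to 0.215 with Psmb8 and Psmb5 left out. Several of these alternatives could not turn its sign. A library factor cancels in it, and each pair was positive, which fixes the sign with any pair left out. Every inducible log2 ratio was above every constitutive one, which fixes the sign for medians over the sets. The trend removals could move it, and gave 0.214 for length and 0.188 for GC. With the length trend removed 15 members changed sign. All 288 recomputed log2 ratios of single members moved by less than the robust spread of all genes. That bound, 0.134, is wide beside the members' median of 0.0634, so it says little about their signs. No paired analysis was possible because WT and KO have 1 library each, which also bars leaving a library out. Depth limits low genes most, here Psma8, Psmb11 and Psmc3ip.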
